A study of Mus musculus with 16 samples.

Results

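The genes of the cytosolic ribosomal proteins, 77 of the 27128 genes in the tables, were followed through 12 RNA sequencing libraries of cultured mouse male germline stem cells. Members were taken by name: Rpl or Rps followed by a number and at most a single letter a, x or l, with Rplp1, Rplp2 and Rpsa, and without the S6 kinases and names marked as pseudogenes. They comprised 42 genes of the large subunit, 2 of its acidic stalk (Rplp1 and Rplp2), 31 of the small subunit, and 2 paralogs, Rpl3l and Rps27l. All 77 passed the filter on low values, a mean of at least 1 CPM (read counts scaled to the size of each library) over the 12 libraries, which 14301 genes passed. The rule missed members listed under older names, such as Rplp0, the base of the stalk, which appeared as Arbp at 1746 to 3087 CPM.

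The cells descended from Oct4-GFP+ KIT- germ cells sorted at postnatal day 5.5 from B6;CBA-Tg(Pou5f1-EGFP)2Mnn/J mice. The transgene makes GFP under Pou5f1 (Oct4) regulatory sequence, and all 12 groups carried it. All cultures received GDNF, bFGF and EGF in serum-free medium. A feeder-removal series held cells on mouse embryonic fibroblast (MEF) feeders (day 0) and cells 4 and 9 days after their move to Matrigel, a basement membrane extract. A density pair compared Matrigel coats: 0.1 µg/cm2, on which the culture was epithelial-like, and 10 µg/cm2, on which it was mesenchymal-like. A sorted series split cells grown at 10 µg/cm2 by their GFP into low, mid and high fractions. An inhibitor series held cells on MEF given either DMSO, which served as control, or UNC0638, an inhibitor of the histone methyltransferase G9a (Ehmt2), at 0.5, 1 or 2 µM for 48 hours. Each group had 1 library, so no difference has a replicate check, no test between conditions was possible, and no p-value is given. The libraries of feeder cultures could also hold RNA of the feeder cells.

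Library totals ranged from 4335185 to 12019651 expected counts. All 21 germ cell markers of a list were detected in every library, and together held 5316 to 7405 CPM. Fibroblast markers, 20 genes of which at most 2 were at 0, summed to 119 to 338 CPM in 7 libraries, and to 7815 CPM in the mesenchymal-like library, 3417 CPM in the DMSO library, and 1178, 485 and 609 CPM at 0.5, 1 and 2 µM of the inhibitor UNC0638. The sum of 9 myeloid markers was 302, 258 and 31.0 CPM from the low to the high GFP fraction, and 7.28 to 14.7 CPM in the other libraries, where 2 to 6 of them were at 0. No group was shared between experiments, so differences between experiments cannot be told apart from those of handling or sequencing.

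Each ribosome joins a small subunit, which decodes the messenger RNA, to a large subunit, which forms the peptide bond. The proteins wrapped around the ribosomal RNA are needed in matched amounts, their genes are among the most active of growing cells, and their transcripts typically begin with a run of pyrimidines, the 5′ terminal oligopyrimidine (TOP) tract, through which mTOR signalling and the protein Larp1 adjust their translation. These genes have also left many processed pseudogenes in mammalian genomes, whose sequences resemble the spliced transcript and can draw its reads.

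The start sites are shown first because the TOP tract is known from these transcripts and the rule did not use it. Of the 77 members, 56 had an entry in the RefSeq promoter table (GRCm38.p6), with 68 starts in all. The windows below run 5′ to 3′ on the gene's strand, from 20 bases before the annotated start to the 10th transcribed base, and capitals mark the longest run of C or T that overlaps the bases from 5 before the start to the 10th base. The 8 genes are ones the results name, and the first 5 had long runs and the last 3 short ones.
Rpl7a: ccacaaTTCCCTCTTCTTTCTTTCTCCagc
Rpl4: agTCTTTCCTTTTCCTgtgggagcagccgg
Rpl28: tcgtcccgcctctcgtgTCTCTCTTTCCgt
Rps18: acttatacgtcacttccgCTCTCTCTTCCa
Rps6: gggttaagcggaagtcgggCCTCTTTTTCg
Rpl27: ccggaacgctctgTTCCTgtctgctgctcg
Rpl26: gagatctcgcggcaaCTTacagaaccggaa
Rpl5: ctctttctcacgtcgCTTgcgtgctggtgg
These windows lie at chr2:26910787-26910816 for Rpl7a, chr9:64173367-64173396 for Rpl4, chr7:4792945-4792974 for Rpl28, chr11:101442225-101442254 for Rpl27, chr11:68901546-68901575 for Rpl26 and chr5:107900508-107900537 for Rpl5, all on the plus strand. Those of Rps18, at chr17:33955656-33955685, and Rps6, at chr4:86857358-86857387, lie on the minus strand. The runs were 21 bases long in Rpl7a, 14 in Rpl4, 11 in Rpl28 and Rps18, 10 in Rps6, 5 in Rpl27 and 3 in Rpl26 and Rpl5.

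A C or T run of at least 6 bases, placed as above, was found at 33 of the 68 member starts (48.5%). Over all 32851 starts in the table it was found at 24.4%. Some genes had several annotated starts, as Rpl35a did with 3, so this is a share of starts and not of genes. A run placed this way could end before the start, as it did in Rpl4. The median run was 5 bases at member starts and 4 at all starts. In the window of 300 bases around the start, searched on both strands, CCGGAAG, the core of sites for ETS family factors, was found at 36.8% of member starts and 8.86% of all starts. AAGATGGCG, the core of sites for Yy1, was found at 7.35% and 1.40%, and CTTTCC at 48.5% and 26.6%. The motifs can overlap one another and the C/T runs. These matches describe letters near annotated starts and do not show that a factor binds there. RefSeq positions were found for 76 members, on 19 chromosomes, with Rpl10, Rpl36a, Rpl39 and Rps4x on X.

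Ribosomal protein genes took 2.66% of the counts of a library at the lowest (Matrigel day 9, 95% Wilson interval 2.65 to 2.67) and 5.68% at the highest (epithelial-like, 5.66 to 5.70). In the feeder-removal series the share was 3.26% on day 0, 2.91% on day 4 and 2.66% on day 9. The density pair had 5.68% (epithelial-like) and 5.04% (mesenchymal-like), and the sorted fractions had 4.51%, 4.43% and 3.87% in order of GFP. In the inhibitor series it was 4.201% with DMSO and 4.199%, 4.35% and 4.76% at 0.5, 1 and 2 µM. The feeder-removal libraries were the lowest 3 of the 12. In a bulk library, fewer cells of a type and less RNA per cell cannot be told apart. By the deposited TPM, which divides by transcript length, the share was 8.18% to 16.03% with the same library at each end. Members named Rpl, which include the stalk and Rpl3l, took more counts than those named Rps, which include Rps27l, in every library. The ratio was 1.10 (GFP-low) to 1.25 (2 µM UNC0638). The large subunit had more members, 42 against 31, and the ratio was not divided by their number.

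**Figure D1:**
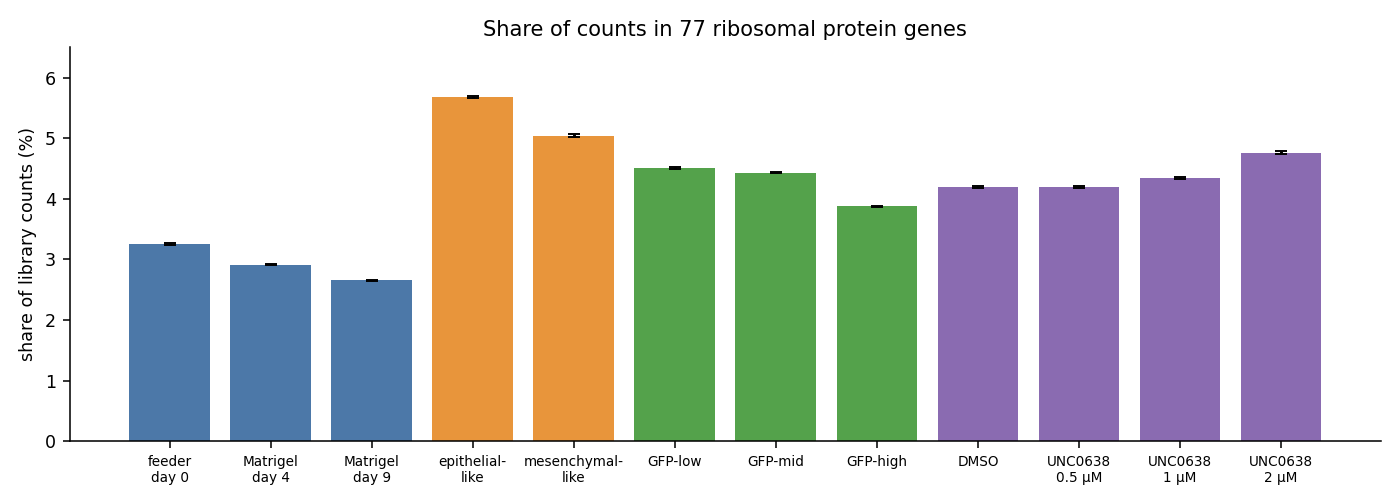
Bars show the share of each library's expected counts (percent, axis from 0) that fell in the 77 ribosomal protein genes, with 95% Wilson intervals for counting error, coloured by experiment. The share was 2.66% to 3.26% in the feeder-removal series and 3.87% to 5.68% in the other 9 libraries.

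Levels between genes are compared per length, in TPM. The median member had a median of 1506 TPM over the 12 libraries, and 52 of the 77 members had a median of at least 1000 TPM. Rps2, a small-subunit protein at the entry of the messenger RNA channel, had the highest median, 4740 TPM, with 3310, 3484 and 3507 TPM on days 0, 4 and 9 and 4449 to 5333 TPM in the other 9 libraries. Rpl13 of the large subunit had a median of 4321 TPM, with 3434, 3026 and 2789 TPM in the feeder-removal series and 4284 to 5290 TPM elsewhere. Rpl41, whose product is a very short basic peptide, had a median of 4155 TPM, with 2379, 2051 and 1913 TPM in the feeder-removal series and 3785 to 5569 TPM elsewhere. In these 3 genes no library of the feeder-removal series reached the lowest of the others. In counts not divided by length, Rpl4, which lines the peptide exit tunnel, was the highest member of every library, at 2356 CPM on day 9 to 3872 CPM in the epithelial-like library.

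At the other end, 8 members had a median below 10% of that of the median member: Rpl21 (8.02 TPM), Rpl3l (9.44), Rpl3 (12.2), Rpl31 (24.4), Rpl27a (33.9), Rps6 (61.2), Rpl22 (100.1) and Rps15a (144). Rps29 was next, at 177 TPM. Only Rpl3l of these is a paralog, known for its expression in heart and skeletal muscle. Its level was 4.01 to 6.75 CPM in the 12 libraries. Rps27l, the paralog of Rps27 known as a target of Trp53, was at 168, 137 and 117 CPM in the feeder-removal series and 81.4 to 142 CPM in the other 9 libraries, and was the only member highest on day 0.

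**Figure D2:**
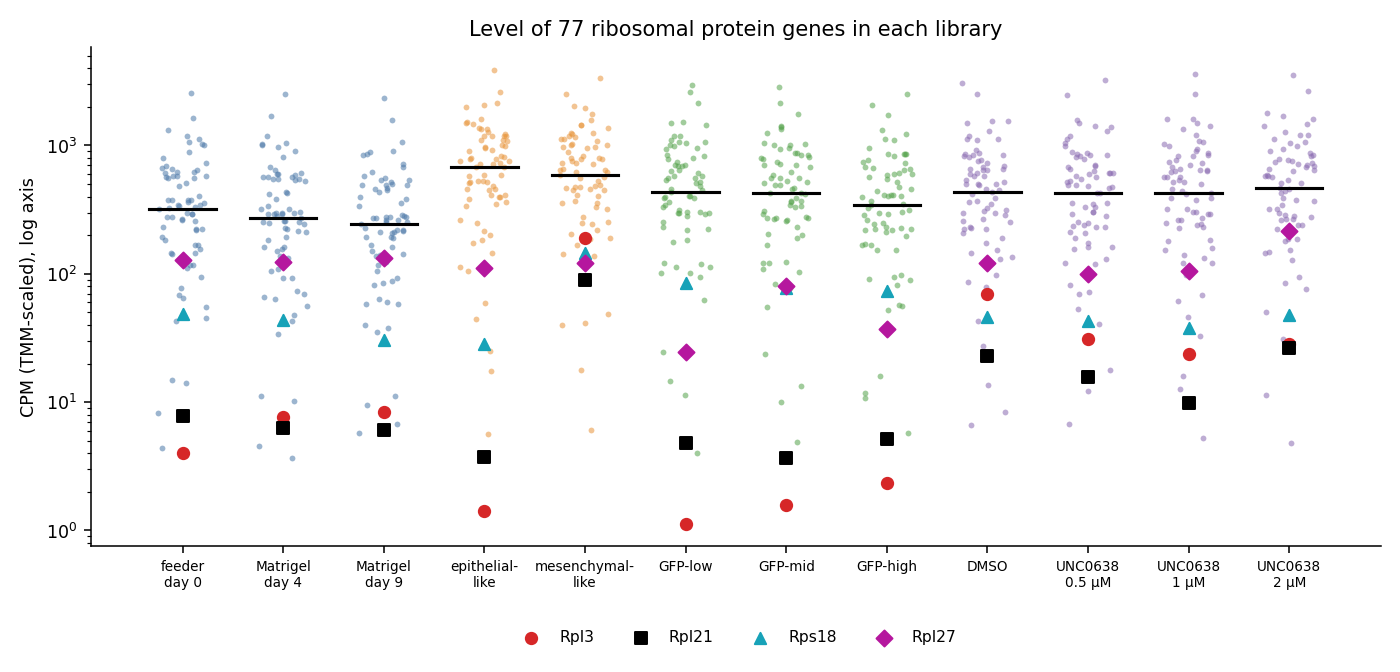
Each point is a ribosomal protein gene in a library (CPM, log axis), black bars are the median of the 77 genes, and Rpl3, Rpl21, Rps18 and Rpl27 are drawn with their own symbols. The median runs from 243 CPM on Matrigel day 9 to 675 CPM in the epithelial-like library, and Rpl3 ranges from 1.13 to 189 CPM.

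Most members followed a shared profile over the libraries. Of the 77, 49 were highest in the epithelial-like library (7.21% of all genes kept were), 18 in the mesenchymal-like library (15.4%), and 60 were lowest on Matrigel day 9 (7.46%). In 41 members all 3 feeder-removal libraries lay below all 9 others (13.2% of all genes), and in 0 members above them (14.4%). The range of log2(CPM + 1) over the 12 libraries had a median of 1.45 among members, against 1.29 among all genes kept. It was at least 1 in 62 members, at least 2 in 12 and at least 3 in 3.

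The narrowest profiles with at least 50 counts belonged to Rpl5, Rps6 and Rpl3l. Rpl5, which binds Mdm2 when ribosome assembly fails, had a range of 0.53: it was at 562, 591 and 553 CPM on days 0, 4 and 9, and 679 and 556 CPM in the density pair. The sorted fractions held 708, 801 and 739 CPM from low to high GFP, and the inhibitor series 582, 567, 568 and 648 CPM from DMSO to 2 µM. Its 3 highest values were those of the sorted fractions. Rps6, the target of the S6 kinases, had a range of 0.63: it was at 45.2, 43.2 and 39.9 CPM in the feeder-removal series, 58.9 and 49.0 CPM in the density pair, 62.1, 54.9 and 57.5 CPM in the sorted fractions and 43.1, 52.8, 45.9 and 50.2 CPM in the inhibitor series.

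The widest profiles belonged to Rpl3 (6.48), Rpl21 (4.28), Rpl27 (3.07), Rps12 (2.66) and Rpl26 (2.39). Rps12, a protein of the small subunit's beak, was at 67.9, 69.5 and 60.04 CPM in the feeder-removal series and 385 and 368 CPM in the density pair. From low to high GFP it was at 297, 260 and 223 CPM, and in the inhibitor series at 189, 160, 154 and 187 CPM. The ranges of the 4 experiments did not overlap. Rpl26, which lies near the exit of the peptide tunnel, was at 54.97, 48.2 and 38.1 CPM in the feeder-removal series and 105 and 204 CPM in the density pair. It was at 102, 77.3 and 56.2 CPM from GFP-low to GFP-high and 87.04, 72.8, 67.9 and 84.3 CPM in the inhibitor series, so the mesenchymal-like library stood above the rest.

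**Figure D3:**
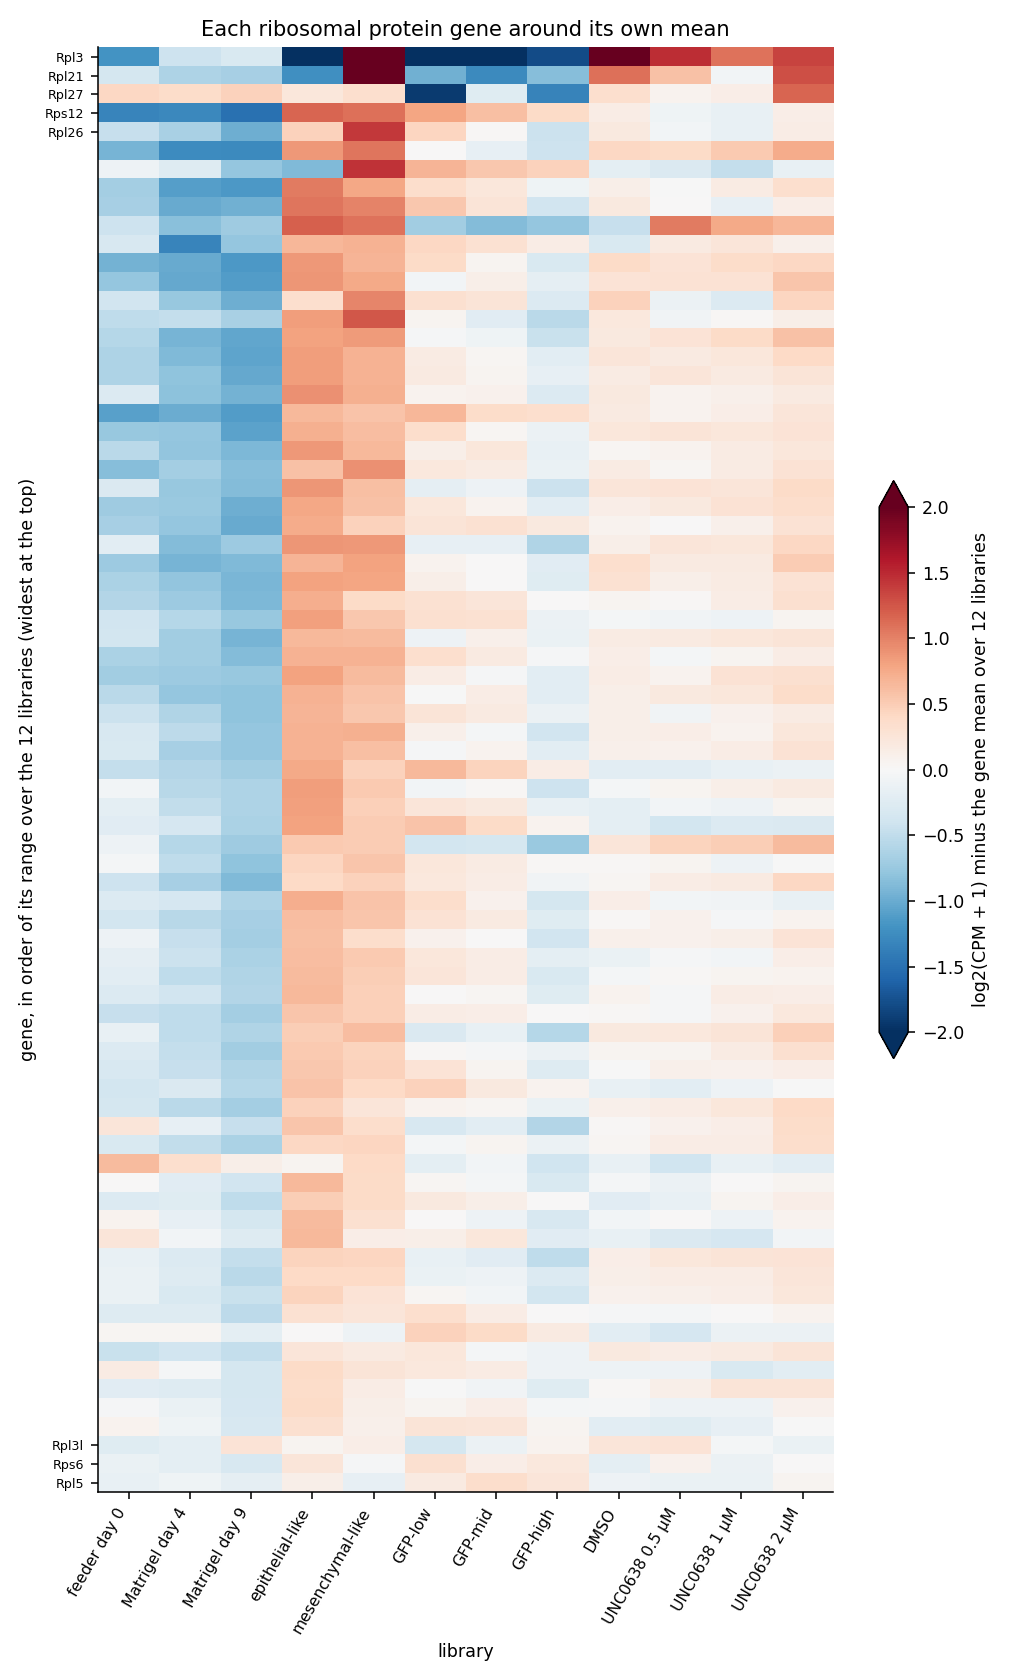
Rows are the 77 genes, ordered by their range with the 5 widest and 3 narrowest named, columns are the 12 libraries, and colour is log2(CPM + 1) minus the gene's mean over the libraries (scale limited to -2 to 2). The feeder-removal columns are mostly blue and the density pair mostly red, and Rpl3, Rpl21 and Rpl27 at the top follow other patterns.

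Removal from feeders was accompanied by lower levels of most members. On day 4, 65 of 77 members were lower than on day 0 (45.5% of all genes kept were lower) and 12 were higher (54.1%), with a median log2 ratio of -0.19 against 0.03 for all genes. On day 9, 73 were lower (46.6% of all genes) and 4 higher (53.1%), with a median of -0.34 against 0.02. All 31 small-subunit genes were lower on day 9, as were 39 of 42 large-subunit genes and both stalk genes. Levels were in the order day 0, day 4, day 9 from high to low in 59 members (17.9% of all genes), in comparisons that share the day 0 library.

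The differences were small for single genes. At 2-fold, 1 member was called lower on day 4 (1.03% of all genes) and 0 higher (1.25%), and on day 9 0 were lower (0.979%) and 0 higher (1.62%). The member was Rpl31, at 8.30, 3.64 and 5.78 CPM on days 0, 4 and 9, with a log2 ratio of -1.003 on day 4 (95% counting interval -1.78 to -0.61). Counting intervals here are Clopper-Pearson intervals of the split of reads between 2 libraries, computed without the pseudocount. Rpl38 was next, at 117, 74.1 and 81.1 CPM (-0.65 on day 4, -0.79 to -0.52). Rps21 was at 93.9, 64.2 and 58.4 CPM, with log2 ratios of -0.54 (-0.70 to -0.40) and -0.68 (-0.84 to -0.53). On day 9 the lowest ratios were those of Rps23, a protein of the decoding centre, at 145, 105 and 85.0 CPM (-0.76, -0.89 to -0.65), and Rpl35, at 578, 436 and 356 CPM (-0.70, -0.76 to -0.64). Summed with its pseudogene row, Rps23 had -0.53 (-0.59 to -0.47) on day 9, which no longer lay below Rpl35 and Rps21. Summed with its pseudogene rows, Rpl31 did not reach 2-fold on day 4. The other 4 genes, Rpl38, Rps21, Rps23 and Rpl35, were lower at both times.

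Rpl3 had the highest ratios at both times, 0.79 (0.34 to 1.58) on day 4 and 0.90 (0.47 to 1.69) on day 9, from 31 counts on day 0. Summed with its pseudogene row, Rpl3 had 0.13 on day 4 and -0.23 on day 9. Rpl10, which joins the large subunit late in its assembly, was at 192, 216 and 192 CPM (0.17 on day 4, 0.07 to 0.26), and Rpsa at 644, 686 and 627 CPM (0.09 on day 4, 0.04 to 0.14). On day 9 Rpl3l had a ratio of 0.52 (0.02 to 1.24) at 4.41 to 6.75 CPM, and Rpl27 of 0.05 (-0.06 to 0.17), or -0.27 with its copies added. Across members the day 4 and day 9 ratios correlated with log2 transcript length at a Pearson r of 0.34 each (77 genes that share 2 libraries). The 34 members under 600 bases had medians of -0.24 and -0.42, and the 43 longer ones -0.14 and -0.31; the part of length in the result was not tested.

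In the density pair most members were slightly lower in the mesenchymal-like library. There 56 members were lower (54.4% of all genes) and 21 higher, with a median log2 ratio of -0.11 against -0.06 for all genes; 25 of the 31 small-subunit genes were lower. Rps27 had the lowest ratio, at 363 CPM in the epithelial-like and 254 CPM in the mesenchymal-like library (-0.51, counting interval -0.63 to -0.40). Rps15 was at 586 and 460 CPM (-0.35, -0.44 to -0.26) and Rpl35a at 454 and 359 CPM (-0.34, -0.44 to -0.24). Of the germ cell markers 18 of 21 were lower as well, with a median of -0.29, and their part in the result was not tested.

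At 2-fold, 3 members were higher in the mesenchymal-like library (10.7% of all genes kept) and 0 lower (1.78%). They were Rpl3, at 1.41 and 189 CPM (log2 ratio 6.30, interval 5.94 to 8.52), Rpl21, at 3.76 and 89.3 CPM (4.25, 3.85 to 5.39), and Rps18, at 28.2 and 146 CPM (2.33, 2.09 to 2.67). These are values of each gene's own row, and of the 3 only Rpl21 reached 2-fold when summed with its pseudogene rows. Rpl26 had a ratio of 0.95 (0.79 to 1.13), Rpl27a of 0.65 (0.31 to 1.04) and Rps4x of 0.42 (0.33 to 0.51). In the same comparison 20 of 20 fibroblast markers were higher, 19 of them at least 2-fold, and their part in these results was not tested.

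In the sorted series members were lowest where Oct4-GFP was highest. In the GFP-high fraction 72 members were lower than in the GFP-low fraction (51.6% of all genes) and 5 higher, with a median log2 ratio of -0.34 against -0.02. By the deposited TPM the split was 62 lower and 15 higher, with a median of -0.18 against 0.12. In the GFP-mid fraction 54 were lower (51.6% of all genes) and 23 higher, with a median of -0.07 against -0.01; scaling by total counts gave 42 lower and 35 higher, and the deposited TPM 45 and 32. Among the 3 fractions 70 members were lowest in GFP-high (36.8% of all genes), and 51 were in the order GFP-low, GFP-mid, GFP-high from high to low (26.9%); the comparisons share the GFP-low library. All 31 small-subunit genes, and 38 of 42 large-subunit genes, were lower in GFP-high than in GFP-low.

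At 2-fold, 0 members were called in GFP-high (2.59% of all genes lower, 6.94% higher). The lowest ratio was that of Rpl39, a small protein of the exit tunnel encoded on X, at 101, 82.7 and 52.4 CPM from GFP-low to GFP-high (-0.93, -1.11 to -0.78). Rpl26 had a ratio of -0.85 (-1.03 to -0.71), and Rpl7a, at 647, 513 and 398 CPM, of -0.70 (-0.76 to -0.64). In each of these the GFP-mid value lay between the other fractions. The highest ratios with enough counts were those of Rpl27 (0.57, 0.34 to 0.85), Rpl3l (0.43, -0.14 to 1.19) and Rpl5 (0.06, 0.01 to 0.11), but Rpl27 summed with its copies had -0.50 (-0.57 to -0.43). The myeloid sum was 302 CPM in GFP-low and 31.0 CPM in GFP-high, 14 of 20 fibroblast markers were higher in GFP-high, and 5 of 21 germ cell markers were at least 2-fold lower and 3 higher in GFP-high; their part in the result was not tested.

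In GFP-mid 1 member was called higher at 2-fold (3.38% of all genes) and 0 lower (0.685%). It was Rpl27, at 24.7, 80.5 and 37.3 CPM from GFP-low to GFP-high (log2 ratio 1.67, 1.48 to 1.93, for GFP-mid), which did not reach 2-fold when its pseudogene rows were added. Rpl27 was at 128, 123 and 132 CPM in the feeder-removal series, 112 and 121 CPM in the density pair, and 120.4, 100.1, 105 and 215 CPM in the inhibitor series. In its own row the sorted fractions were the lowest libraries and 2 µM UNC0638 the highest. With its 3 copies added it held 361, 307 and 299 CPM in the feeder-removal series, 660 and 601 CPM in the density pair, 467, 422 and 330 CPM in the sorted fractions and 492, 431, 422 and 487 CPM in the inhibitor series, an order in which neither holds. The lowest ratios in GFP-mid were those of Rpl26 (-0.40), Rpl7a (-0.33) and Rpl8 (-0.31), and Rpl3l (0.24, -0.35 to 0.95) and Rpl9 (0.20, 0.14 to 0.26) followed Rpl27 at the other end.

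With UNC0638 the members were balanced at the lower doses and mostly higher at 2 µM. At 0.5 µM 35 members were higher than with DMSO (48.1% of all genes) and 42 lower, with a median log2 ratio of -0.01. At 1 µM 45 were higher (49.3%) and 32 lower (50.4%), with a median of 0.03. At 2 µM 63 were higher (48.1%) and 14 lower, with a median of 0.14 against -0.02 for all genes. The 2 µM library was the highest of the 4 for 56 members (28.3% of all genes), and 29 were higher at every dose (25.2%). The 3 comparisons share the DMSO library.

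At 2-fold, 1 member was called higher at each dose, against 1.58%, 2.59% and 3.42% of all genes. It was Rps29, a small zinc-binding protein of the small subunit, at 13.6 CPM in the DMSO library, 40.4 CPM at 0.5 µM, 32.8 CPM at 1 µM and 30.9 CPM at 2 µM. Its log2 ratios were 1.51 (1.17 to 1.99), 1.21 (0.87 to 1.70) and 1.13 (0.76 to 1.63). Rps29 was at 14.1, 10.2 and 11.2 CPM in the feeder-removal series, 44.8 and 41.5 CPM in the density pair and 11.4, 10.1 and 10.7 CPM in the sorted fractions. The treated libraries therefore lay near the density pair, and DMSO near the other 6 libraries. No copy row was matched to Rps29.

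Members called lower at 2-fold numbered 1 at 0.5 µM (2.13% of all genes), 2 at 1 µM (4.12%) and 1 at 2 µM (3.59%). Rpl3 was lower at each dose, at 69.7 CPM in the DMSO library, then 31.0, 23.6 and 28.4 CPM as the dose increased, and its log2 ratios were -1.14 (-1.45 to -0.89), -1.52 (-1.86 to -1.27) and -1.26 (-1.60 to -0.99). With its pseudogene row added, Rpl3 was 2-fold lower at 0 of the 3 doses. Rpl21 was at 23.0 CPM in the DMSO library and 15.8, 9.77 and 26.3 CPM at the 3 doses. Its ratio was -0.51 (-0.97 to -0.12) at 0.5 µM, -1.15 (-1.72 to -0.76) at 1 µM and 0.19 (-0.19 to 0.58) at 2 µM. Rpl27a, at 27.1 CPM with DMSO, had ratios of -0.57 at 0.5 µM and -0.72 at 1 µM, and of -0.03 at 2 µM (-0.40 to 0.34). Fibroblast markers were lower as well, 20 of 20, 20 of 20 and 19 of 20 at the 3 doses, and their part in these results was not tested. Among members with small counting error at 2 µM, Rps7 was at 1124 CPM with DMSO and 1471 CPM (0.39, 0.34 to 0.44) and Rps20 at 651 and 850 CPM (0.38, 0.32 to 0.45). Rpl31, at 8.38 CPM with DMSO, had ratios of 0.48, 0.55 and 0.41 at the 3 doses, with counting intervals that included 0 at 0.5 and 2 µM, and of -0.08, -0.02 and 0.06 with its copies added. Rps6 had 0.29 (0.03 to 0.56) at 0.5 µM, and Rps14 had -0.11 (-0.17 to -0.04) at 2 µM. The ratio of Rpl27 at 2 µM was 0.83 (0.69 to 0.99) in its own row and -0.02 (-0.10 to 0.07) with its copies added.

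The DMSO and day 0 libraries both came from feeder cultures without inhibitor, but from different experiments. Their distance is given beside the comparisons within experiments. It also holds what differed between experiments, so it does not measure the spread between cultures within an experiment. Of the 77 members 63 were higher with DMSO (50.3% of all genes) and 14 lower, with a median log2 ratio of 0.39 against 0.01. That is a larger median difference than in any comparison within an experiment, the largest of which was -0.34. At 2-fold, 9 members were higher (12.2% of all genes) and 0 lower (7.22%), and 5 were called with copies summed, Rpl3 no longer among them. Rpl3 had a ratio of 3.82 (3.58 to 4.70), Rps12 of 1.46 (1.32 to 1.63) and Rpl21 of 1.45 (1.10 to 2.04). Rpl28 was at 117 and 299 CPM (1.34, 1.23 to 1.47), Rpl7a at 257 and 642 CPM (1.32, 1.24 to 1.40) and Rpsa at 644 and 1539 CPM (1.26, 1.21 to 1.31). The other 3 were Rpl22, Rpl36 and Rpl10, with ratios of 1.05, 1.05 and 1.01. The lowest ratio was that of Rps27l, at 168 and 97.8 CPM (-0.78, -0.94 to -0.63), followed by Rps27 (-0.40) and Rps19 (-0.28). Fibroblast markers differed in the same direction as most members, with 18 of 20 at least 2-fold higher with DMSO, and their part was not tested.

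**Figure D4:**
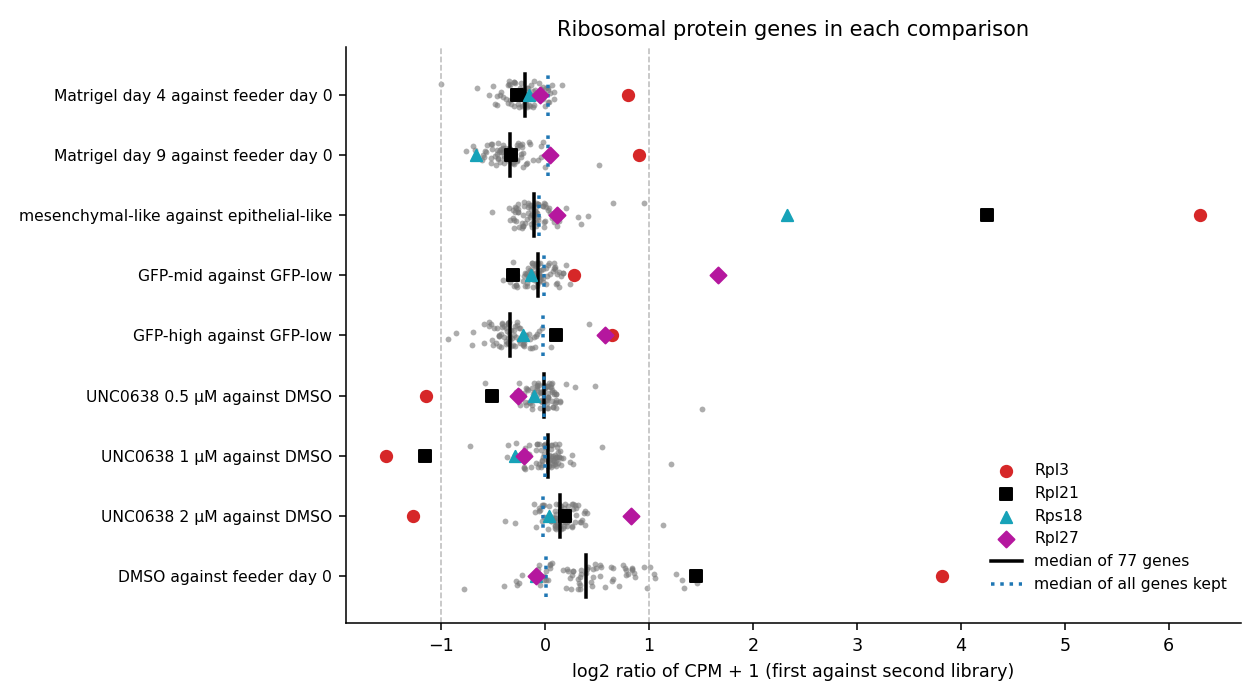
Points are the log2 ratios of CPM + 1 of the 77 genes in each comparison, black bars their median, dotted bars the median of all genes kept, and dashed lines 2-fold. Medians of the genes lie below 0 in the feeder-removal, density and sorted comparisons, and Rpl3 lies left of 0 in the 3 UNC0638 comparisons and right of it in the other 6.

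Rpl3, which reaches toward the peptidyl transferase centre, had the widest range of the 77 members and a level among the lowest. Its own row held 4.02, 7.70 and 8.38 CPM on days 0, 4 and 9, 1.41 and 189 CPM in the density pair, and 1.13, 1.58 and 2.34 CPM from low to high GFP. From DMSO to 2 µM UNC0638 it held 69.7, 31.0, 23.6 and 28.4 CPM. The mesenchymal-like library was the highest, the 4 feeder cultures of the inhibitor series followed, and the epithelial-like and sorted libraries were the lowest. The lowest 4 libraries held 6, 9, 20 and 22 counts, and the counting intervals of GFP-mid and GFP-high against GFP-low included 0 (-0.71 to 1.81 and -0.13 to 2.35), so their order was not resolved by these counts. Rpl3 lay below the median of the other members in all 12 libraries, by a log2 difference of -8.14 in the epithelial-like library to -1.67 in the mesenchymal-like library, and was the lowest member of 5 libraries.

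Among 7967 genes whose log2 range reached 1, with 50 or more counts in the highest library, the highest Pearson correlations of log2(CPM + 1) with Rpl3 over the 12 libraries were those of Ptprn (0.99), Tuba1a (0.98), Ccdc80 (0.97), Clca1 (0.97) and Gsn (0.97). Gsn, the actin-severing protein gelsolin, was at 27.9 CPM in the epithelial-like, 639 CPM in the mesenchymal-like and 246 CPM in the DMSO library. The lowest were those of Padi2 (-0.91), Xlr3a (-0.91), LOC545703 (-0.90), BC002059 (-0.89) and 6230410P16Rik (-0.87). Among members, Rpl21 correlated with Rpl3 at 0.94, Rps7 was next at 0.58, and Rpl15 was lowest at -0.73. These correlations describe 12 libraries in 4 experiments, and the mesenchymal-like library is the highest point for Rpl3, Rpl21 and each of the 5 genes most like it.

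Rpl21, which shared that profile, was at 7.78, 6.26 and 6.02 CPM in the feeder-removal series and 3.76 and 89.3 CPM in the density pair. It was at 4.76, 3.64 and 5.20 CPM in the sorted fractions and 23.0, 15.8, 9.77 and 26.3 CPM in the inhibitor series. Like Rpl3 it was highest in the mesenchymal-like library, but unlike Rpl3 it was no lower at 2 µM UNC0638 than with DMSO. The fibroblast marker sum was also highest in the mesenchymal-like library and next with DMSO, at 7815 and 3417 CPM, and its part in the profiles of Rpl3 and Rpl21 was not tested. In the day 0, day 4 and epithelial-like libraries, where Rpl3 was low, the sum was 325, 329 and 338 CPM. None of the 20 fibroblast markers was at 0 in any of these libraries.

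A row named LOC100043000, which RefSeq names Rpl3-ps1, a pseudogene on chrX:13202518-13203837 (GRCm38.p6), held most of the reads of this pair. The Rpl3 gene itself lies on chr15:80077781-80083406. Summed, the rows of Rpl3 and Rpl3-ps1 held 715, 781 and 609 CPM in the feeder-removal series, 1501 and 1405 CPM in the density pair, 1382, 1189 and 1029 CPM in the sorted fractions and 1072, 1117, 1091 and 1057 CPM in the inhibitor series. The row of Rpl3 made up 0.0817% of that sum at the lowest, in GFP-low, and 13.5% at the highest, in the mesenchymal-like library. The sum had a log2 range of 1.30 where Rpl3 alone had 6.48.

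On the sum, no ratio of Rpl3 reached 2-fold in the 9 comparisons. The log2 ratio of the mesenchymal-like to the epithelial-like library was -0.10 (-0.15 to -0.04) in place of 6.30, and those at 0.5, 1 and 2 µM UNC0638 were 0.060, 0.026 and -0.02 in place of -1.14, -1.52 and -1.26. For DMSO against day 0 the ratio was 0.58 in place of 3.82, and on day 9 it was -0.23 in place of 0.90. With every member summed with its matched copies, Rpl3 lay above the median of the others in all 12 libraries, by a log2 difference of 0.85 to 1.37. The tables cannot show from which locus the shared reads came. Expected counts that were not whole, as RSEM gives where it divides reads between genes, occurred in 61 to 67 of the 77 members of a library, against 8.52% to 10.7% of all genes.

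**Figure D5:**
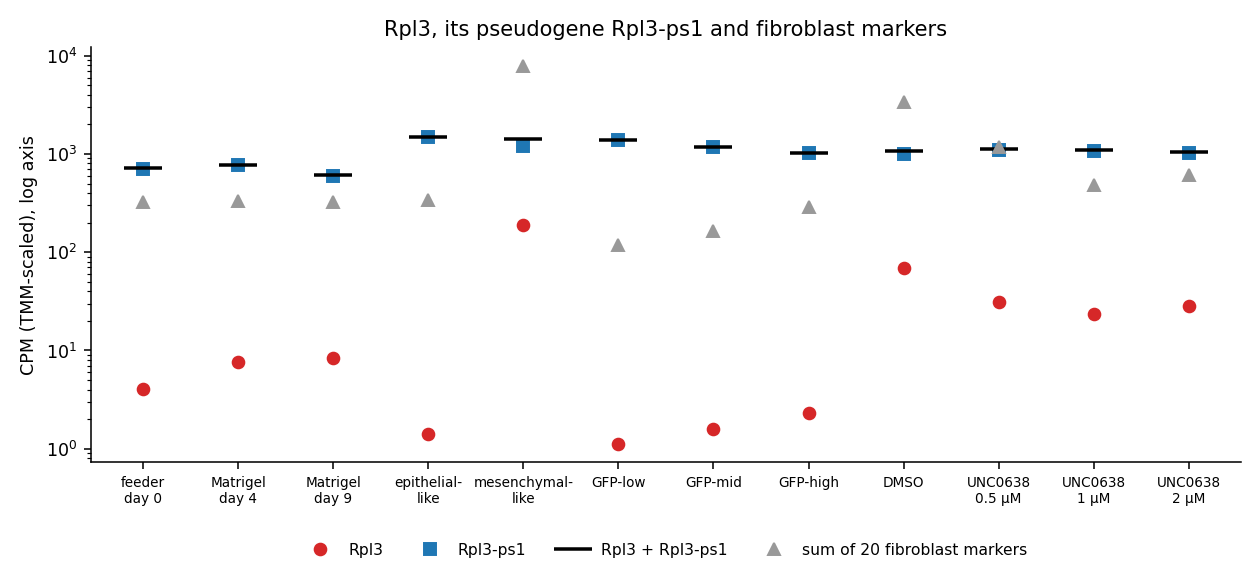
The level of Rpl3 (circles), of its pseudogene row Rpl3-ps1 (squares) and of their sum (bars) is plotted in each library with the summed level of 20 fibroblast markers (triangles), in CPM on a log axis. The sum stays between 609 and 1501 CPM while Rpl3 alone spans 1.13 to 189 CPM, and the fibroblast markers peak at 7815 CPM in the mesenchymal-like library, where Rpl3 also peaks.

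Other members also had counted pseudogene rows. By RefSeq names, 195 rows of the tables were copies of ribosomal protein genes, and 52 members were among their parent genes. Of the rows, 82 passed the filter and 11 held at least 100 CPM on average. The other 25 members had no matched copy. In 6 members the gene's own row held under 50% of the sum in every library (Rpl3, Rps18, Rpl27, Rpl31, Rps23 and Rpl15), and in 54 it held over 90% in every library. Rps18, in the head of the small subunit, was at 48.9, 43.8 and 30.6 CPM in the feeder-removal series, 28.2 and 146 CPM in the density pair, 84.8, 77.05 and 73.2 CPM in the sorted fractions and 46.1, 42.8, 37.5 and 47.4 CPM in the inhibitor series. Its own row was 2.20% to 13.6% of the sum with 4 copies, and the mesenchymal-like to epithelial-like ratio of the sum was -0.26 (-0.32 to -0.20) in place of 2.33. The Rpl27 row was 5.29% to 44.2% of its sum, and the GFP-mid to GFP-low ratio of the sum was -0.15 (-0.21 to -0.09) in place of 1.67. Rpl31, with 13 copies, had 2.44% to 4.78% in its own row, and its day 4 ratio was -0.22 (-0.32 to -0.12) on the sum in place of -1.003.

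Some wide profiles remained on the sum. The Rpl21 row held 21.6% to 84.3% of its sum with 11 copies, and the sum still had a mesenchymal-like to epithelial-like ratio of 2.54 (2.25 to 2.98), at 17.4 and 106 CPM. The rows of Rps12 and Rpl26 held at least 98.6% and 99.2% of their sums. With members summed, 8 had a log2 range of at least 2, where 12 did in their own rows. Of the 8 members with low TPM, 2 (Rpl3 and Rpl31) had under 50% of the sum in their own row in every library. The matches go by name and are incomplete, so reads of a member may lie in further rows.

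Ribosomal proteins listed under other names had ratios of the same sign as most members in several comparisons. Gnb2l1, the small-subunit protein now called Rack1, was at 526, 592 and 506 CPM on days 0, 4 and 9. Of 5 such genes, among them Fau, Gnb2l1, Arbp and Rpl36al, 5 were lower on day 9 (46.6% of all genes) with a median of -0.23. In GFP-high 4 were lower (51.6%), with a median of -0.24, and at 2 µM UNC0638 4 were higher (48.1%), with a median of 0.17. Fau, which fuses a ubiquitin-like domain to a small-subunit protein, differed from most members in the density pair, at 233 and 293 CPM. Of the paralogs Rpl22l1 and Rpl7l1, both were lower on day 9 (-0.80 and -0.11) and in GFP-high (-0.55 and -0.23).

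Translation factors whose transcripts carry TOP tracts, 12 genes, were compared with the members. On day 4, 7 of 12 were higher (54.1% of all genes) and 5 lower (median 0.01), and in the density pair 6 were higher (45.5%) and 6 lower (median 0.01). On day 9, 9 of 12 were lower (46.6% of all genes) with a median of -0.10, and in GFP-high 9 were lower (51.6%) with a median of -0.37, where the members had -0.34 in both. Eef1b2, an exchange factor of elongation, was at 597, 489 and 415 CPM from GFP-low to GFP-high (-0.52), and Eef2, the translocase, at 2997, 2192 and 2282 CPM (-0.39). Tpt1 was higher instead, at 45.1, 97.4 and 102 CPM (1.16). These are values of own rows, and pseudogene rows were not summed for the translation factors. At 2 µM UNC0638, 8 of 12 were higher (48.1% of all genes) with a median of 0.05 against -0.02 for all genes, and Pabpc1, the poly(A)-binding protein, was at 703 CPM in the DMSO library and 1075 CPM (0.61).

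Ribosome biogenesis genes, 32 in all, which make and process ribosomal RNA and assemble subunits, were split evenly in the feeder-removal series and in GFP-high, and were mostly lower in the density pair. On day 9, 16 were higher and 16 lower (median 0.00), as in GFP-high (16 and 16, median 0.00). In the mesenchymal-like library 28 of 32 were lower (54.4% of all genes) with a median of -0.24, against -0.11 for the members and -0.06 for all genes. Nip7, a factor of large-subunit assembly, was at 216 and 147 CPM there (-0.55), and Fbl, which methylates ribosomal RNA, at 349 and 283 CPM (-0.30). At 0.5, 1 and 2 µM UNC0638, 22, 23 and 20 of 32 were higher (48.1%, 49.3% and 48.1% of all genes), with medians of 0.04, 0.06 and 0.03 against -0.01, 0.00 and -0.02 for all genes.

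Among 9 regulators of ribosome synthesis, 7 were higher on day 4 (54.1% of all genes). On day 9, in the mesenchymal-like library and in GFP-high 5 were higher (53.1%, 45.5% and 48.1% of all genes). At 0.5, 1 and 2 µM UNC0638, 6, 7 and 6 were lower (51.6%, 50.4% and 51.7% of all genes). Only Myc of these 9 passed 2-fold in a comparison. Myc was at 9.85, 7.70 and 6.67 CPM in the feeder-removal series, 6.10 and 42.7 CPM in the density pair (2.62), and 14.6, 6.74, 7.16 and 5.27 CPM in the inhibitor series, at most 3.51 CPM in the sorted fractions. Mycn, its relative, was at 145 to 180 CPM in the other 3 experiments and 76.9, 82.3 and 105 CPM from GFP-low to GFP-high, the reverse of the order of most members. Larp1, which binds TOP transcripts, was at 32.98, 55.3 and 54.1 CPM in the same fractions (0.70 for GFP-high).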

How the data were processed

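RNA was measured in 12 libraries made by a modified Smart-seq2 procedure, per the labels' protocols. Reads were trimmed with Trim Galore and quantified with RSEM on mm10, per the submitters' processing notes; the aligner and annotation release are not given in the sources used here. Per the file headers, the authors deposited an expected count (an estimated count from RSEM, not normalized) and a TPM (scaled by transcript length and library size) for each gene. The 4 ATAC-seq libraries were not analysed here.

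Expected counts were rounded to whole numbers and scaled to CPM with TMM factors from edgeR 4.0.16 (R 4.3.3). The filter kept genes whose mean reached 1 CPM. A ratio is log2(CPM + 1) between 2 libraries, called at 2-fold; with the pseudocount of 1, differences of low genes appear smaller than they are. Expected counts of 3 corresponded to 0.238 to 0.724 CPM. Intervals (95%) cover counting error only, as each group held 1 library, and treat rounded expected counts as independent reads. The reads were amplified and carry no molecular identifier, and RSEM divided some between genes, so the intervals can be too narrow. With 1 library per group no test between conditions was made. The steps were tested on simulated counts.

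The members and the lists (ribosomal proteins under other names, paralogs, TOP translation factors, ribosome biogenesis, regulators, and fibroblast, germ cell and myeloid markers) were chosen with earlier results of these data known. Any member or list gene could be named; those named by rule were Rpl3, the 5 widest and 3 narrowest ranges, the 3 highest by TPM, the 3 highest and 3 lowest ratios of each comparison with at least 50 counts, and the 5 genes most and least like Rpl3. Some genes that this rule or the lists name are not reported here. The alternatives tried were size factors from DESeq2 1.42.0, scaling by total counts, deposited TPM values, a pseudocount of 0.1 or 5, and a filter at 10 CPM or none. Summing each member with the rows that RefSeq (GRCm38.p6) names as its pseudogenes was chosen after seeing the data. Start windows and motif counts came from the RefSeq promoter table. Scripts ran in Python 3.11.15 (pandas 2.3.3, numpy 2.4.6, matplotlib 3.10.9, scipy 1.17.1).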

Additional observations from a re-analysis of the deposited data

How the results depend on the processing

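Over all alternatives, 137 values of the main results stayed close to the value reported, 22 moved and 3 reversed. Removing the filter could not change these values, because all 77 members passed it. For a median ratio, close meant a difference within the counting error typical of a single member, whatever the sign. Members called at 2-fold: day 4, 1, and 0 with a pseudocount of 5 or copies summed; day 9, 0, and 1 by TPM or a pseudocount of 0.1; density pair, 3, and 1 summed; GFP-mid, 1, and 0 summed; 0.5 µM, 2, and 1 summed; 1 µM, 3, and 2 with a pseudocount of 5, and 2 summed, without Rpl3; 2 µM, 2, and 1 with a pseudocount of 5 or summed; DMSO against day 0, 9, and 5 summed. The median was -0.22 by TPM on day 9, and in GFP-high -0.25 by total counts and -0.18 by TPM. The lowest share (2.66%) was 8.18% by TPM and 2.97% summed, the highest (5.68%) 16.03% and 6.36%. The distance of Rpl3 from the other members (lowest -8.14, median -4.87, highest -1.67) was -9.54, -6.14 and -2.98 by TPM, -6.73 and -4.36 (lowest and median) with a pseudocount of 5, and reversed to 0.85, 1.06 and 1.37 summed. Summing also reversed ratios called at 2-fold, those of Rpl3 (density pair -0.10, 0.5 µM 0.060, 1 µM 0.026), Rps18 (density pair -0.26) and Rpl27 (GFP-mid -0.15). Of the single-gene values 405 stayed close, 22 moved and these 5 reversed. Called or not, 19 of 72 changed sign on the sum, among them Rpl3 on day 9 (-0.23) and in GFP-mid (-0.22) and GFP-high (-0.43), Rpl27 in GFP-high (-0.50) and at 2 µM (-0.02), and Rpl31 at 0.5 and 1 µM (-0.08 and -0.02). Total counts shifted the median of all genes to -0.12 in the density pair, and TPM to 0.13 on day 9, -0.11 in the density pair and 0.12 in GFP-high. Apart from the summing, the cause of these shifts was not tested. No paired analysis was possible because each RNA group held 1 library, which also left no replicate to leave out. Rpl3 held 6 to 22 counts in 4 libraries, and the spread between cultures is unknown for every value.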
